A study of Mus musculus with 12 samples.

Results

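Ctdsp1, Ctdsp2, Ctdspl and Ctdspl2 encode related phosphatases that act on the C-terminal domain (CTD) of RNA polymerase II. They were chosen by gene name, as the genes whose introns hold the miR-26 genes together with their relative Ctdspl2. The 4 genes are listed once each in both deposited tables, out of 19429 genes listed in either, and all 4 passed the filter on low values in both. Messenger RNA was sequenced in 12 libraries from cultured primary stromal vascular fraction of white fat of 6-week-old C57BL/6 mice, in 4 groups of 3. WT cells were wild type, and TKO cells were null (-/-) for miR-26a-1 as well as for miR-26a-2 and for miR-26b, so that every miR-26 gene was missing. Both were cultured until confluent. CTL and Dox cells carried M2rtTA, a doxycycline-dependent transactivator, and the eGFP.miR-26a transgene that it switches on. Dox cells received 1 mg/ml doxycycline during 4 days of culture and CTL cells received none. CTL cells carry the same transgenes as Dox cells, so that comparison does not include the effect of the transgenes themselves, whereas only Dox cells were exposed to the drug. The promoter that drives M2rtTA is not given in the sources used here. The labels do not say whether the 3 libraries of a group came from separate animals, so p-values measure the spread between these libraries, which may be technical.

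The CTD is a long tail of repeated short peptides on the largest subunit of RNA polymerase II. Kinases add phosphates to it as the enzyme starts and elongates a transcript, and phosphatases remove them so that the enzyme can be used again. Ctdsp1, Ctdsp2 and Ctdspl are the small CTD phosphatases: they are recruited by the repressor REST to silence neuronal genes in other cell types, and they also remove phosphates from Smad proteins and from the retinoblastoma protein. Ctdspl2 shares the phosphatase domain and is reported to act on Smads of the bone morphogenetic protein pathway. Each of the small phosphatase genes carries 1 miR-26 gene in an intron, on its own strand, so that the microRNA is cut out of the primary transcript of its host.

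In the GENCODE vM21 annotation (GRCm38), Ctdsp1 (ENSMUSG00000026176.13) lies on chromosome 1 at 74391509 to 74397285 and has 7 exons. Its Mir26b hairpin lies in intron 4 of 6, an intron of 564 bases, 245 bases before the next exon. Ctdsp2 (ENSMUSG00000078429.9) lies on chromosome 10 at 126978717 to 126999975 and has 8 exons. Mir26a-2 lies in its intron 5 of 7, 241 bases before the next exon, and the exons of 2 other annotated Ctdsp2 transcripts run across that hairpin. Ctdspl (ENSMUSG00000047409.13) lies on chromosome 9 at 118926453 to 119043998, and Mir26a-1 lies in its intron 5 of 7, an intron of 3283 bases. Ctdspl2 (ENSMUSG00000033411.16), on chromosome 2 at 121956001 to 122013642, has 13 exons and holds no miR-26 gene. All 4 genes are on the + strand. The annotated proteins of the hosts are 261, 270 and 276 residues long and 65.3% to 71.1% identical over the aligned stretch. Ctdspl2 encodes 465 residues and is 39.1% to 50.8% identical to them over shorter stretches.

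The mature microRNAs are shown because they define the matches searched for below. The RefSeq sequences (GRCm38.p6) are written with the seed, bases 2 to 8, in capitals. Mir26a-1 (chr9:119031811-119031832) and Mir26a-2 (chr10:126995543-126995564) give the same mature sequence, and Mir26b (chr1:74394324-74394344) gives one with the same seed.
miR-26a-5p: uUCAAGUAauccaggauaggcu
miR-26b-5p: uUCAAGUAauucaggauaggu

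Among the 4 genes, seed matches in the 3' UTR were found in Ctdsp2, which has 2, and in Ctdspl2, which has 1. Ctdsp1 and Ctdspl have none in 3' UTRs of 1701 and 3349 bases. The transcript strand of 1 annotated transcript per gene was searched for TACTTGA (the complement of the seed), ACTTGAA (the complement of bases 2 to 7 followed by A) and TACTTGAA, in which both overlap. No member holds TACTTGAA. The sites are shown in their 29-base context, with the match in capitals. The first Ctdsp2 site, at chr10:126997566-126997572, lies 1080 bases after the stop codon, and the other, at chr10:126999881-126999887, lies 82 bases before the end of the transcript. The Ctdspl2 site is at chr2:122012743-122012749, 2115 bases after the stop codon. All 3 sites are in the last exon.
Ctdsp2 site 1: agtgttgctctTACTTGAtttgccaaatg
Ctdsp2 site 2: tgtattcaaaaACTTGAActgtaggatgc
Ctdspl2 site 1: tgttgacaatgTACTTGAtcaggaattaa

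A match of any of these kinds occurs in 21.9% of the 10374 genes tested in TKO against WT that have an annotated 3' UTR, and 5.41% have 2 or more. The 3' UTRs of Ctdsp2 (3483 bases) and Ctdspl2 (3014 bases) are longer than the median of 1209 bases. Ctdspl2 also has 1 match to ACTTGAA in its coding sequence, and the hosts have none there. The matches describe the annotated sequence, and their use by the microRNA was not measured.

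The deposited values are a signal, reads scaled to a common library size. Depth was 54978109 to 61307137 recovered reads in WT, 71455180 to 83461531 in TKO, 20182665 to 24122542 in CTL and 19301969 to 25785460 in Dox. The members had 1935 to 24145 reads per library in the first 2 groups and 476 to 7001 in the others, so that counting error is smallest for Ctdsp2 and larger for Ctdspl and Ctdspl2. The stromal label was checked on 9 marker genes of adipose stromal and progenitor cells: all 9 are listed, with a summed signal of 13363 to 15216 in WT and TKO and 16500 to 21286 in CTL and Dox. Most of that sum is Col1a1, while Cd34 (17.3 to 39.5) and Dpp4 (2.4 to 12.1) were low in WT and TKO. Being listed is a weak check, since all 7 macrophage and leukocyte markers are listed too. In TKO 2 of the 9 fell, Thy1 (-0.86, limma adjusted p 0.0043) and Pdgfrb (-0.47, adjusted p 0.017), and 7 did not pass. Of all genes tested 22.7% were called lower, so the count is no result about these markers. The 7 macrophage and leukocyte markers summed to 35.2 to 55.6 in WT and to 47.9 to 252.9 in TKO, with the high value in TKO replicate 2. They summed to 37.7 to 151.6 in CTL and 26.8 to 124.3 in Dox. The 4 epithelial markers summed to 8.2 to 35.4 in WT, 0.46 to 76.6 in TKO, 4.4 to 152.8 in CTL and 15.2 to 167.2 in Dox. In CTL and Dox the high values of both lists were in replicate 1 of each group. The 4 listed adipocyte markers summed to 28.1 to 30.9 in WT and to 28.9 to 114.9 in TKO, with the high values in TKO replicates 1 and 2 (Fabp4 83.5 and 80.7), and Lep is not listed. The part of these cells in the results below was not tested. Without TKO replicate 2, and with replicate 1 still in the fit, the members had limma adjusted p of 0.0039 to 0.048. The highest epithelial sum in TKO was in replicate 3 (Krt8 31.0, Krt18 23.4). Without that library Ctdsp1 (limma adjusted p 0.056) and Ctdsp2 (0.059) missed the threshold, while Ctdspl and Ctdspl2 kept their calls. In such mixed cultures, fewer cells of a type and less RNA per cell cannot be told apart.

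Loss of miR-26 was accompanied by lower Ctdsp1, Ctdspl and Ctdspl2 and by higher Ctdsp2, and for each of the 4 genes the TKO and WT libraries did not overlap. The question of this comparison is how the host genes and their relative are expressed once the microRNAs in 3 of them are deleted. The fit called 45.8% of the 12649 genes tested, 23.2% higher and 22.7% lower, and in 58.8% of all genes the groups did not overlap. A call on any 1 member is therefore common in this comparison, and what separates the members is their direction and size.

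Ctdsp2, the host of Mir26a-2, was the one member with more transcript in TKO. Its signal was 239.4, 301.3 and 267.6 in the TKO libraries and 197.5, 192.3 and 227.7 in WT. The means were 269.4 ± 31.0 and 205.8 ± 19.1 (SD, n = 3 each), a log2 fold change of 0.38 with a 95% interval of 0.13 to 0.64 (limma adjusted p 0.026, Benjamini-Hochberg over all genes tested). The lowest TKO library was close above the highest WT library. The adjusted p was 0.089 once WT replicate 1 was left out, 0.098 for WT replicate 2 and 0.059 for TKO replicate 3.

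Ctdsp1, the host of Mir26b, went down. Its signal was 65.1, 70.3 and 59.4 in TKO, below every WT library (79.9, 75.7 and 85.5), with means of 65.0 ± 5.45 and 80.3 ± 4.91 (SD, n = 3 each). The log2 fold change was -0.30 (95% interval -0.50 to -0.10, limma adjusted p 0.024). Scaling by library size alone put the median of all genes at 0.11 and made 66.7% of all calls higher ones, in place of 50.6%. It ended the Ctdsp1 call (-0.18, adjusted p 0.16), and so did leaving out WT replicate 1 (0.071), WT replicate 3 (0.082) or TKO replicate 3 (0.056). The replicate block also ended the call (limma adjusted p 0.066). With a trend in transcript length and GC content removed the fold change was larger, -0.48 (adjusted p 0.0020).

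Ctdspl, the host of Mir26a-1, read 28.2, 33.0 and 27.7 in TKO and 40.5, 39.2 and 37.2 in WT. The means were 29.6 ± 2.94 and 39.0 ± 1.67 (SD, n = 3 each), and the log2 fold change was -0.39 (95% interval -0.59 to -0.18, limma adjusted p 0.011). The call held when each library was left out in turn (adjusted p 0.0039 to 0.048) and ended with library-size scaling (-0.27, adjusted p 0.064).

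Ctdspl2, which hosts no microRNA, showed the largest fold change of the 4 in size in this fit. Its signal was 26.05, 24.4 and 31.1 in TKO against 37.0, 37.3 and 39.8 in WT, with all TKO libraries well below all WT libraries. The means were 27.2 ± 3.46 and 38.0 ± 1.56 (SD, n = 3 each), a log2 fold change of -0.48 (SE 0.10, 95% interval -0.71 to -0.24, limma adjusted p 0.0084). The call held when each library was left out in turn (adjusted p 0.0035 to 0.034) and with library-size scaling (-0.36, adjusted p 0.028). It ended with the trend in length and GC removed (-0.22, adjusted p 0.071). The Ctdspl2 transcript has 40.1% GC, against 53.5% to 57.6% in the 3 hosts. In the authors' deposited table Ctdspl2 had a false discovery rate of 0.0072 and Ctdspl, Ctdsp2 and Ctdsp1 rates of 0.028, 0.042 and 0.10, with the same directions.

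**Figure D1:**
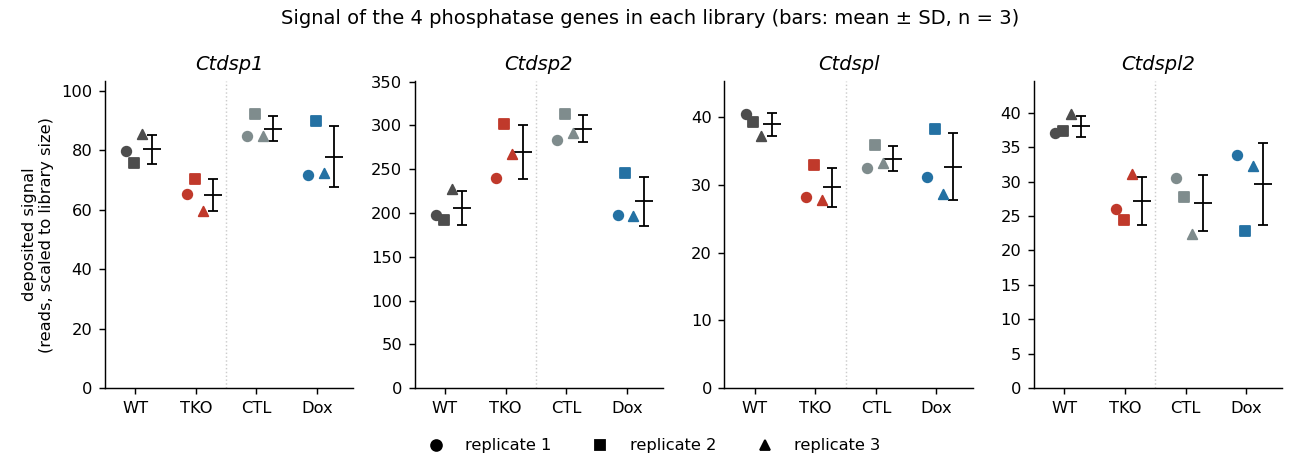
Deposited signal (reads scaled to a common library size, axis from 0) of Ctdsp1, Ctdsp2, Ctdspl and Ctdspl2 in each of the 12 libraries, with the replicate number as the symbol and mean ± SD (n = 3) beside each group. Ctdsp2 lies higher in TKO than in WT and lower in Dox than in CTL, while the TKO libraries of the other 3 genes lie below WT. WT and TKO were scaled apart from CTL and Dox.

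The ratio of 2 members within a library does not depend on how the library was scaled. It can still change with the trend in length and GC content. With that trend removed the Ctdspl2 fold change was -0.22 in place of -0.48. In TKO the balance between the hosts moved towards Ctdsp2. There were 3.68, 4.28 and 4.50 Ctdsp2 signals per Ctdsp1 signal in TKO against 2.47, 2.54 and 2.66 in WT, a log2 difference of 0.69 between the groups. Per Ctdspl signal there were 8.50, 9.12 and 9.65 in TKO against 4.88, 4.90 and 6.12 in WT, a log2 difference of 0.78. For both ratios, and for Ctdsp2 to Ctdspl2 (0.88), every TKO library was above every WT library. The exact two-sided permutation p was 0.1 for each, the smallest that 3 against 3 allows (0.2 adjusted over the 6 pairs of members), so this design cannot reach 0.05. The same ratio to Ctdsp1 separated the groups for 53.0% of all genes tested, and the ratio to Ctdspl did so for 57.6%.

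Ctdsp1 and Ctdspl kept nearly the same ratio to each other. It was 2.19 in TKO and 2.06 in WT as the group's geometric mean, the libraries overlapped, and the log2 difference of 0.09 was smaller than the SD of 0.14 among the WT libraries (exact permutation p 0.3, adjusted 0.45). The ratios of Ctdsp1 and of Ctdspl to Ctdspl2 also overlapped between TKO and WT (exact permutation p 0.4 and 0.8).

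**Figure D2:**
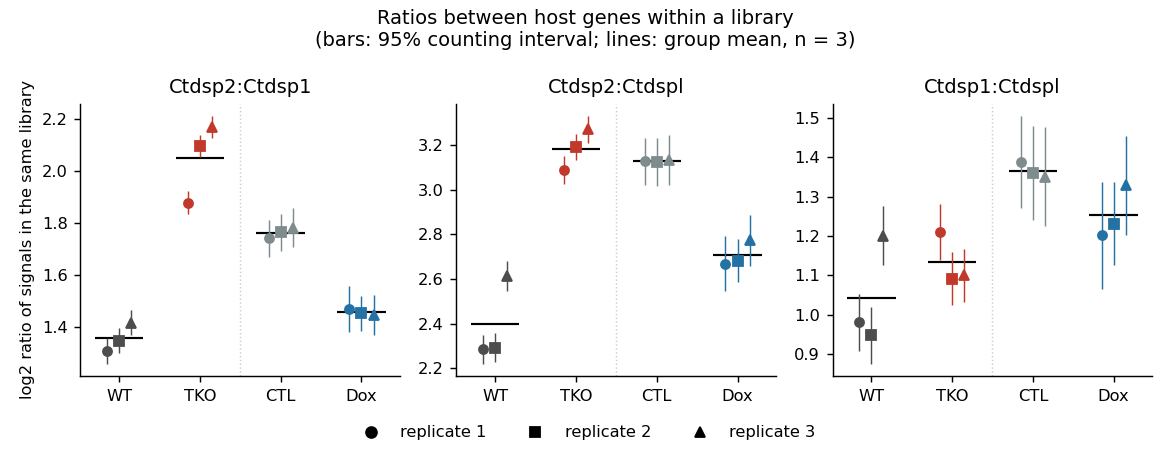
Log2 ratio of the signals of 2 host genes in the same library (vertical axis, cut to the range of the data) for each of the 12 libraries, with the 95% counting interval of each ratio and the group mean as a line. Ctdsp2 to Ctdsp1 and Ctdsp2 to Ctdspl are higher in TKO than in WT and lower in Dox than in CTL without overlap, and Ctdsp1 to Ctdspl overlaps between TKO and WT.

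Levels of different genes were compared per kilobase of exonic length. In all 12 libraries the order was Ctdsp2, Ctdsp1, Ctdspl, Ctdspl2. In WT, signal per kilobase was 37.3 ± 3.46 for Ctdsp2, 24.1 ± 1.47 for Ctdsp1, 7.51 ± 0.32 for Ctdspl and 4.11 ± 0.17 for Ctdspl2 (SD, n = 3). In TKO it was 48.8 ± 5.60, 19.5 ± 1.63, 5.71 ± 0.57 and 2.94 ± 0.37 in the same order (SD, n = 3). The first 3 places were separated by more than these spreads in both groups. The order of Ctdspl and Ctdspl2 depended on the length used: with the length of 1 transcript per gene they changed places in TKO replicate 3 and Dox replicate 3. Ctdsp2 made up 50.0% to 52.6% of the summed signal per kilobase of the 4 genes in the WT libraries and 60.9% to 64.6% in TKO. The sum itself overlapped between the groups, at 69.1 to 78.3 in WT and 71.1 to 84.6 in TKO.

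Ctdsp2 was lower in every Dox library than in every CTL library, a difference that passed the limma test when replicates were paired, and the other 3 genes passed in neither fit. This comparison asks what a surplus of miR-26a does in cells that keep their own miR-26 genes. Without regard to replicate number, limma called 0 of 12634 genes, which is 0%, at an adjusted p under 0.05, while 748 genes had an unadjusted p under 0.05, edgeR on recovered reads called 0 and DESeq2 called 99. Libraries of CTL and Dox with the same number deviated together, and with the number as a block limma called 265 genes, which is 2.10%, with 0.562% higher and 1.54% lower. The groups did not overlap in 12.2% of genes.

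The Ctdsp2 signal was 198.0, 245.5 and 196.4 in Dox and 283.7, 313.1 and 291.4 in CTL, with means of 213.3 ± 27.9 and 296.1 ± 15.2 (SD, n = 3 each). The log2 fold change was -0.48 (95% interval -0.74 to -0.22), which missed the threshold without the block (limma adjusted p 0.51) and passed it with the block (0.021). The differences within pairs 1, 2 and 3 were -0.52, -0.35 and -0.57. In the paired fit the adjusted p was 0.12 without replicate 1, 2.3e-06 without replicate 2 and 0.0029 without replicate 3. On recovered reads it was 0.47 with edgeR, 0.027 with edgeR and the block, and 0.010 with DESeq2. The false discovery rate in the authors' deposited table was 1 for this gene and for the other members.

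For the other members the Dox and CTL libraries overlapped. Within pairs 1, 2 and 3 the Ctdsp1 log2 differences were -0.25, -0.04 and -0.23, and the paired fit did not call the gene. How many of all genes keep 1 sign in every pair was not counted. Ctdsp1 read 71.6, 89.8 and 72.2 in Dox and 84.9, 92.2 and 84.7 in CTL, a log2 difference of -0.17 with a 95% interval of -0.43 to 0.09 (limma adjusted p 0.91, and 0.30 with the block). Dox replicate 2 overlapped the controls and the other Dox libraries lay below them. Ctdspl read 31.2, 38.2 and 28.7 in Dox and 32.5, 35.9 and 33.2 in CTL (-0.06, 95% interval -0.35 to 0.23, limma adjusted p 1.00, and 0.80 with the block).

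Ctdspl2 read 33.9, 22.9 and 32.3 in Dox and 30.5, 27.8 and 22.4 in CTL. The log2 difference was 0.13 with a 95% interval of -0.30 to 0.56 (limma adjusted p 0.99, and 0.68 with the block), and the pairs went in both directions. In the paired fit without replicate 2, Ctdsp1 (-0.24, limma adjusted p 0.040) and Ctdspl2 (0.33, adjusted p 0.031) passed. These intervals do not show that the 3 genes were unaffected.

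Ratios among the 3 hosts spread little between libraries of a group in these cells. Per Ctdsp1 signal there were 2.77, 2.73 and 2.72 Ctdsp2 signals in Dox against 3.34, 3.40 and 3.44 in CTL, a log2 difference of -0.31 with SDs of 0.01 and 0.02. Counting error alone gives each of these ratios a log2 SE of 0.035 to 0.045. The SDs lie below that, so they understate the uncertainty of the ratios. Per Ctdspl signal there were 6.36, 6.42 and 6.83 in Dox against 8.74, 8.71 and 8.76 in CTL (-0.42). Neither ratio overlapped between the groups (exact two-sided permutation p 0.1 each, the smallest possible here, and 0.2 adjusted over 6 pairs). A ratio to Ctdsp1 separated CTL from Dox for 17.5% of all genes tested, and a ratio to Ctdspl for 8.66%. The ratio of Ctdsp1 to Ctdspl was also lower in every Dox library (2.30, 2.35 and 2.51 against 2.62, 2.57 and 2.55 in CTL). The log2 difference was smaller, -0.11 (exact permutation p 0.1, adjusted 0.2). Each of these ratios has a counting SE of 0.054 to 0.069 on the log2 scale. The closest libraries, at 2.51 in Dox and 2.55 in CTL, are therefore within counting error of each other. Ratios to Ctdspl2 spread far more, with log2 SDs of 0.22 to 0.24 in CTL and 0.49 to 0.51 in Dox, and that of Ctdsp2 to Ctdspl2 overlapped (-0.61, exact permutation p 0.2).

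Per kilobase of exonic length, Ctdsp2 was at 53.6 ± 2.75 in CTL and 38.6 ± 5.05 in Dox, and Ctdsp1 at 26.2 ± 1.27 and 23.3 ± 3.10 (SD, n = 3 each). Ctdspl was at 6.53 ± 0.35 and 6.30 ± 0.95 and Ctdspl2 at 2.91 ± 0.44 and 3.21 ± 0.64 (SD, n = 3 each). Ctdsp2 made up 59.5% to 60.6% of the summed signal per kilobase in CTL and 53.5% to 54.7% in Dox. The sum was 86.4 to 94.2 in CTL and 66.2 to 81.2 in Dox, without overlap. The share of Ctdsp2 was higher in CTL than in WT, but the 2 tables were scaled separately and the cells differ in genotype, so no test was made across them.

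**Figure D3:**
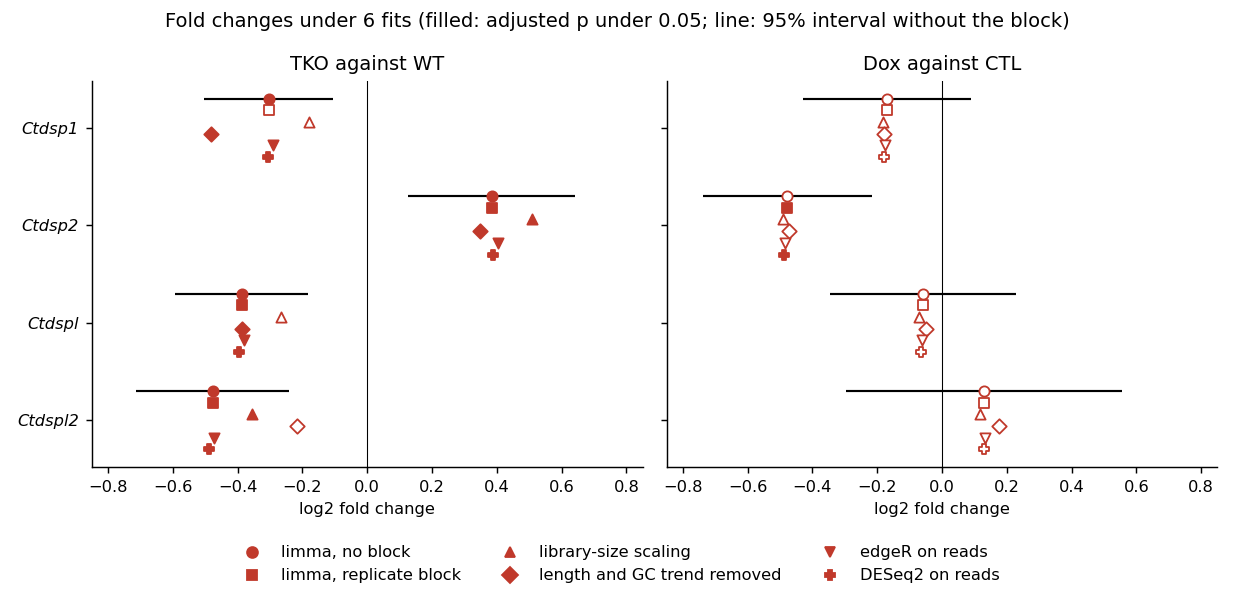
Log2 fold change (horizontal axis) of the 4 genes in both comparisons under 6 fits, with filled symbols where the adjusted p was under 0.05 and the 95% interval of limma without the block as a line. Ctdsp2 is above 0 in TKO and below 0 in Dox under every fit shown, and Ctdspl2 moves towards 0 in TKO when the length and GC trend is removed.

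Reads of Ctdsp2 and Ctdsp1 can in part be shared with other annotated genes. Of all 75-base stretches of their annotated exons, 9.81% for Ctdsp2 and 4.72% for Ctdsp1 also occur in other genes. For Ctdsp1 these are gene models with a Gm name. For Ctdsp2 they are Gm9770 and Mir546, and Mir546 overlaps Ctdsp2 itself on the same strand. The part of each was not separated. For Ctdspl and Ctdspl2 the shares are 0% and 0.187%. Ctdspl overlaps the antisense gene Gm2415 and Ctdspl2 overlaps Mageb3 on the opposite strand, and the strand setting of the counting is not given in the sources used here. Mageb3 itself had a mean signal of 0.041 in WT and 0.036 in TKO.

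Of the other CTD phosphatases and their helpers, more fell than rose in TKO. Of 10 tested, 1 rose, 5 fell and 4 did not pass, beside 45.8% of all genes called (23.2% higher, 22.7% lower), with a median log2 fold change of -0.29 beside -0.00085 over all genes. Those that fell were Rprd2 (-0.71), Rprd1b (-0.35) and Rprd1a (-0.50), which bind the phosphorylated tail, Ublcp1 (-0.35), a phosphatase of the nuclear proteasome, and Cnep1r1 (-0.34), the partner of a phosphatase in the nuclear envelope. Timm50, a mitochondrial import subunit with a domain of the same fold, rose from a mean signal of 16.9 to 27.8 (0.68, limma adjusted p 0.0020). Rprd1a lost its call under 8 of 13 alternatives without the block (adjusted p 0.039 as fitted here), and the other 5 kept theirs in all 13. With the trend removed 2 rose and 7 fell.

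The kinases that phosphorylate the tail went in both directions. Of 12 kinases and cyclins 2 rose, 7 fell and 3 did not pass, with a median of -0.33, where 22.7% of all genes were called lower. Cdk7 (0.38), the kinase of the initiation factor TFIIH, and Cdk9 (0.38), the elongation kinase, rose, while the Cdk7 partner Ccnh fell (-0.48). The Cdk9 call ended with the trend removed (0.11, limma adjusted p 0.18). Ccnk, the cyclin of Cdk12 and Cdk13, fell from a mean signal of 71.1 to 34.8 (-1.01, limma adjusted p 0.00031), and Cdk13 fell from 103.0 to 63.8 (-0.69, adjusted p 0.00072).

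Genes of the polymerase itself also went in both directions. Of 12 RNA polymerase II subunit genes 7 rose, 3 fell and 2 did not pass, with a median of 0.48, where 23.2% of all genes were called higher. Polr2a, which encodes the subunit that carries the tail, fell from a mean of 391.7 to 236.9 (-0.72, limma adjusted p 0.0029), and the second-largest subunit gene Polr2b fell by 0.40 on the log2 scale. Polr2g (0.85), Polr2h (0.70) and Polr2c (0.59), which encode smaller subunits, rose (limma adjusted p 0.00060 to 0.00097). Polr2j (-0.27, adjusted p 0.034) lost its call in 6 of 13 alternatives, among them library-size scaling. With the length and GC trend removed 6 subunit genes rose and 5 fell.

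Of 12 genes of the REST corepressor complex 3 rose, 4 fell and 5 did not pass (median 0.12), beside 45.8% of all genes called. Ehmt2, a histone methyltransferase, rose (0.53) beside the scaffold Sin3b (0.30) and the demethylase Kdm1a (0.19, limma adjusted p 0.0498, lost in 7 of 13 alternatives). Phf21a, a histone reader of the complex, fell (-0.73) beside the scaffold Sin3a (-0.46) and the corepressor Rcor3 (-0.35). Of 19 neuronal genes that REST represses, 16 are listed in this table and 7 passed the filter on low values. Of those 7, 0 rose and 2 fell, beside 45.8% of all genes called: Scg2 (-1.71, mean signal 44.1 to 14.1), which encodes a secretory granule protein, and the synaptic gene Syn1 (-0.53, mean signal 2.44 to 1.39), whose call ended without WT replicate 2 or 3. Of the other neuronal genes 5 did not pass.

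Among 11 genes whose proteins are reported substrates of these phosphatases, 0 rose, 5 fell and 6 did not pass (median -0.32). The share called is near the 45.8% of all genes, so the count is no result about this list. The transcription factor gene Myc fell from a mean signal of 97.5 to 39.3 (-1.30, limma adjusted p 0.00064) in every alternative without the block. Smad9 (-0.83), Smad2 (-0.37) and Smad1 (-0.32), which transmit signals of the TGF-beta and bone morphogenetic protein families, and Snai1 (-0.66), a repressor of epithelial genes, each lost the call in 2 to 8 of 13 alternatives. Library-size scaling gave 2 that rose and 3 that fell, and without WT replicate 2 only 1 fell. These are transcript levels and say nothing about phosphorylation.

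With doxycycline 0 of the 66 genes tested in the 6 lists passed without the block by limma, with 3 at an unadjusted p under 0.05, 0 called by edgeR and 1 by DESeq2. With the block 1 did, where that fit called 2.10% of all genes, so the count is no result about the lists. This gene, Cdk8, a kinase of the Mediator complex, read 25.0, 23.8 and 27.8 in Dox and 37.7, 36.0 and 39.1 in CTL. All Dox libraries were below all CTL libraries (-0.54, limma adjusted p 0.021 with the block and 0.35 without). The groups did not overlap in 12.2% of all genes tested. In TKO Cdk8 was lower as well, from a mean signal of 63.3 to 45.6 (-0.47, limma adjusted p 0.012, lost without WT replicate 2). There 22.7% of all genes were called lower. Cdk8 was singled out in both comparisons after its values were seen.

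**Figure D4:**
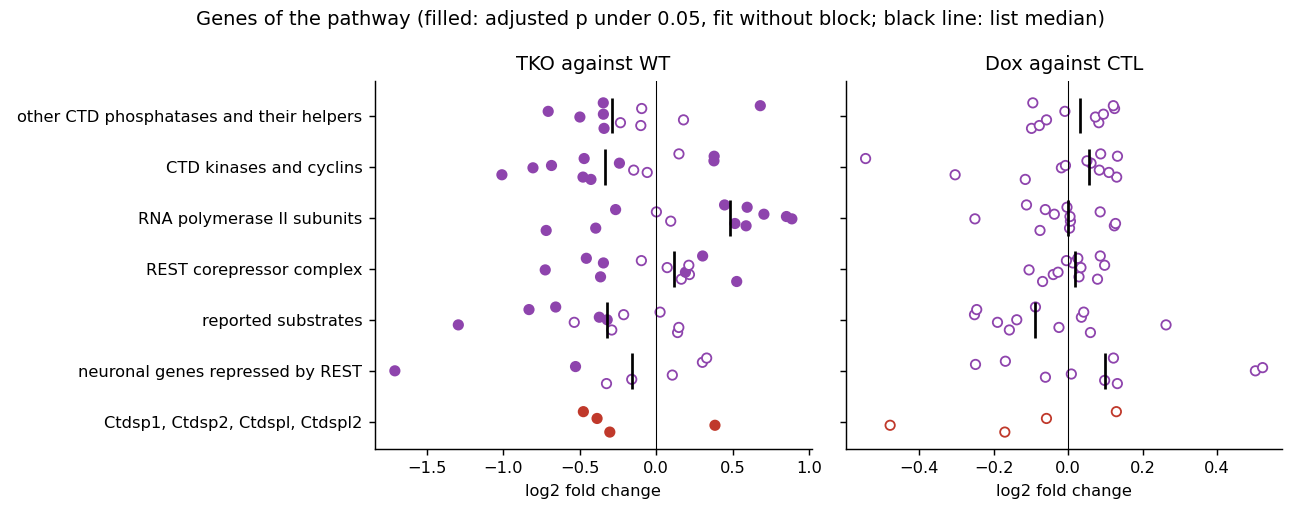
Log2 fold changes (horizontal axis) of the genes of 6 lists and of the 4 members in both comparisons, 1 point per gene, filled where limma without the block gave an adjusted p under 0.05, with the list median as a black line. In TKO the polymerase subunits have the highest median (0.48) and the lists of kinases, substrates and other phosphatases have medians near -0.3, while no point is filled in Dox.

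The deletions lie inside 3 of the members, so the protein-coding genes within 200 kb of each member were taken from the annotation. Around the 3 hosts there are 40 such genes, of which 28 were tested in TKO against WT: 7 rose, 4 fell and 17 did not pass. The share called over all genes is 45.8%, and the difference from it was not tested. Around Ctdspl2, where nothing was deleted, 5 of 9 were tested and 4 fell. The counts around the hosts depended on the scaling, with 12 that rose and 3 that fell under library-size scaling, and 4 and 6 with the trend removed. Without WT replicate 2 they were 2 and 3, without WT replicate 1 they were 4 and 3. In Dox against CTL 0 of 32 neighbours tested passed in limma with or without the block, 2 had an unadjusted p under 0.05, and edgeR and DESeq2 called 0.

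Near Ctdsp2, 4 neighbours rose and 2 fell of 13 tested. The share called is near the 45.8% of all genes, so the count is no result about this locus. The same 45.8% stands beside the small counts near Ctdsp1 and Ctdspl, and no difference from it was tested. Tsfm, a mitochondrial translation factor gene, rose from a mean signal of 8.05 to 16.9 (0.98, limma adjusted p 0.00036) and held in all 13 alternatives without the block. The lipid kinase gene Pip4k2c rose by 0.34 and also held in all 13. Arhgef25 (0.27), Mettl1 (0.29) and Os9 (-0.35) lost their calls in 2, 6 and 4 alternatives, and B4galnt1 (-0.57), a ganglioside synthase gene, held in all. Near Ctdsp1, 11 were tested: Tmbim1 rose (0.31), and Arpc2 (-0.46), of the actin-nucleating Arp2/3 complex, and Zfp142 (-0.50) fell. The Tmbim1 call ended when WT replicate 1 or 2 was left out. Near Ctdspl, 4 were tested, and Vill (0.51) and the phospholipase gene Plcd1 (0.46) rose, each with 2 or 3 alternatives that ended the call.

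A gene of the villin family, which bind actin filaments, follows each host on the same strand. Vil1 begins 12091 bases after Ctdsp1 and is not listed in the tables. Avil begins 734 bases after Ctdsp2, where the host was higher in TKO, and its own mean signal was 7.34 in WT and 5.80 in TKO (limma adjusted p 0.14). Vill begins 8780 bases after Ctdspl, where the host fell, and its mean signal was 9.74 in WT and 14.4 in TKO (adjusted p 0.018). So in TKO against WT the neighbour and the host had fold changes of opposite sign in both pairs, and the Avil change did not pass. In Dox against CTL, Vill (-0.67) and Ctdspl (-0.06) had the same sign, and Avil (0.55) and Ctdsp2 (-0.48) had opposite signs. Neither neighbour passed there, with or without the block.

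Near Ctdspl2 the neighbours that fell were B2m (-1.23), which encodes the invariant chain of class I major histocompatibility molecules, Eif3j1 (-0.60), a translation initiation factor subunit gene, Casc4 (-0.57) and Spg11 (-0.40). B2m went from a mean signal of 1120 to 491.6 (limma adjusted p 0.0044). Spg11 lost its call without WT replicate 1, and the other 3 kept theirs in all 13 alternatives without the block. Frmd5 was the neighbour that did not pass (0.42, adjusted p 0.19).

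**Figure D5:**
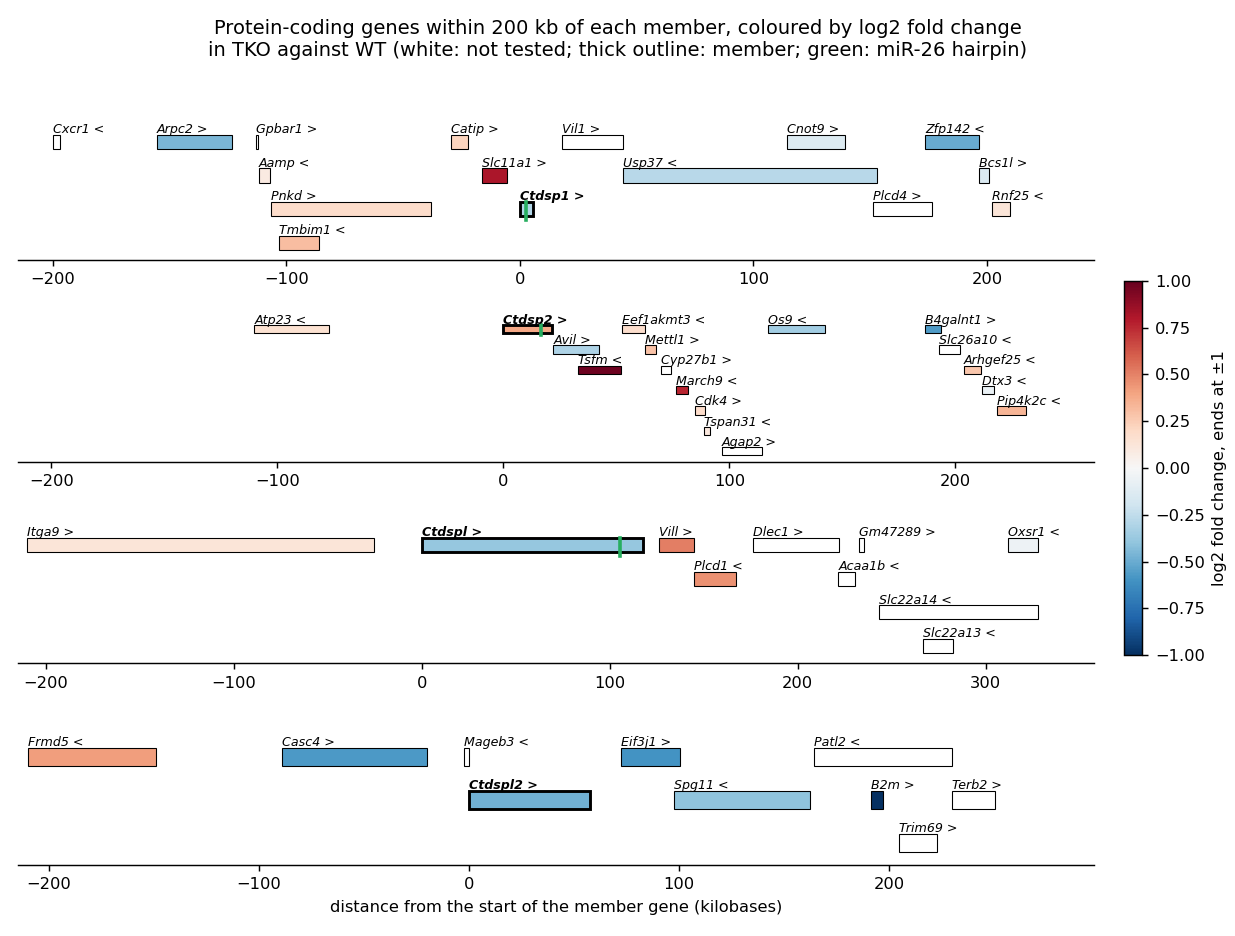
Protein-coding genes within 200 kb of each member, drawn to scale by distance from the member's start in kilobases, cut at the edge of the window, with arrows for the strand and the colour for the log2 fold change in TKO against WT whether or not it passed the test. The 3 miR-26 hairpins (green) lie inside Ctdsp1, Ctdsp2 and Ctdspl, the tested neighbours of Ctdspl2 other than Frmd5 share its lower level, and both directions occur around the hosts.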

How the data were processed

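Messenger RNA libraries (75-base single reads, stranded kit) were processed with TopHat2 2.0.12 (GRCm38, mm10), then featureCounts 1.4.6 and edgeR 3.8.6, per the submitters' processing notes. StringTie 1.2.2 is listed without its role. The signal deposited by the authors is read counts scaled to library size and by a normalization factor. The tables also hold the authors' log2 fold changes and log2 mean levels, a score (the authors' likelihood ratio, not used here) and the authors' p-values with their false discovery rates.

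Dividing by the value of 1 read gave whole reads, within 0.1, for at least 99.3% of the deposited values of each library. Since the files held scaled values, limma 3.58.1 (R 4.3.3) with a trend was run on log2(signal + 1), keeping genes that reached a signal of 1 in 3 or more of 6 libraries, each comparison alone, and Benjamini-Hochberg adjustment over all genes at 0.05. The pseudocount makes fold changes of low genes smaller. Alternatives were edgeR 4.0.16 and DESeq2 1.42.0 on the recovered reads, other scalings, filters and pseudocounts, a length and GC trend removed, a replicate block, and libraries left out. The tests were checked on simulated data. Symbols stored as dates (33 rows over both tables) were renamed by gene identifier.

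The labels number the libraries 1 to 3 in every group without saying what a number marks. For CTL and Dox, deviations of libraries with one number correlated at 0.86, 0.58 and 0.74 over genes, so they were taken as paired and the block is given beside the results it changes. In WT and TKO the values were 0.45, -0.13 and -0.29, so they were not. The columns of Dox replicates 2 and 3 share a sequencing-sample suffix, but their values differ.

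Gene structure, neighbours, UTRs and 75-base stretches come from GENCODE vM21, and microRNA sequences from RefSeq (GRCm38.p6). Genes named are the 4 members and, of each list and of the neighbours, all that passed where 6 or fewer did, otherwise the 3 with the smallest p in each direction. For likeness, the 5 genes with the highest Pearson r over 12 libraries were named for each member. The members and lists were chosen with earlier results of these data known, so they are no independent support. Counting intervals cover counting error only, and reads had no molecular identifiers.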

Additional observations from a re-analysis of the deposited data

How the results depend on the processing

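In TKO against WT each member kept its direction under every alternative. With all libraries, the calls that ended were, as log2 fold changes, Ctdsp1 with library-size scaling (-0.18) and Ctdspl with library-size scaling (-0.27), Ctdspl2 without the length and GC trend (-0.22), Ctdsp1 with the replicate block (-0.30, or -0.29 with edgeR) and Ctdsp2 with the block and the trend removed (0.35). What a number marks in WT and TKO is not known, and deviations of same-numbered libraries correlated at 0.45, -0.13 and -0.29 over genes. The Ctdsp1 call therefore depended on whether the block was used. The block alone left the other members' calls in place. Leaving out libraries, alone or as pairs in the block fit, gave -0.40 to -0.20 for Ctdsp1, 0.25 to 0.47 for Ctdsp2, -0.46 to -0.33 for Ctdspl and -0.57 to -0.41 for Ctdspl2, and 1117 to 5723 genes called in place of 5796. With 1 library left out, Ctdsp1 and Ctdsp2 each missed the threshold in 3 of 6 fits and the other members in 0. With a pair left out in the block fit, Ctdsp2 missed it in 3 of 3 fits, Ctdsp1 and Ctdspl in 2 and Ctdspl2 in 1. The cause of these differences was not tested, but fewer libraries enter such fits.

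In Dox against CTL, Ctdsp2 passed with the replicate block (-0.48), with the block and the trend removed (-0.47), with DESeq2 (-0.49) and with the block and edgeR (-0.49), an alternative chosen after seeing the data. The genes called went from 0 to 265, 931, 99 and 189 in these fits. Leaving out libraries or pairs gave -0.58 to -0.42 for Ctdsp2, -0.28 to -0.11 for Ctdsp1, -0.17 to 0.027 for Ctdspl and -0.059 to 0.33 for Ctdspl2, and 0 to 1534 genes called. The calls without pair 2 (1534 genes) rest on 4 libraries.

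Log2 ratios between members that did not separate TKO from WT changed sign with the trend removed, chosen after seeing the data: Ctdsp1 to Ctdspl to -0.095, Ctdsp1 to Ctdspl2 to -0.26 and Ctdspl to Ctdspl2 to -0.17. The last ran from -0.0602 to 0.24 with 1 library left out. Beyond Ctdsp1 in TKO and Ctdsp2 in Dox, the replicate block over all libraries changed no member's call. Depth limits Ctdspl and Ctdspl2 most in CTL and Dox, at 476 to 1006 reads per library.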

Other observations

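Genes whose pattern over the 12 libraries was most like that of a member were found by Pearson r on log2(signal + 1). Each gene was centred on its own mean over the 6 libraries of each comparison, among 12373 genes tested in both comparisons. The points share libraries, depth and, in CTL and Dox, the replicate pairs, so these values are descriptions without a test. Among the members themselves Ctdsp1 and Ctdspl had r = 0.88, Ctdsp2 and Ctdspl2 had r = -0.67, and the other pairs lay between -0.14 and 0.21. Closest to Ctdsp2 were Rnf167 (r = 0.96), Fam83h, Glmp, Coq3 and Mknk2 (r = 0.95). Of these Glmp, which encodes a lysosomal membrane protein, Coq3, an enzyme of coenzyme Q synthesis, and Mknk2, a kinase of a translation initiation factor, had log2 fold changes of 0.48, 0.52 and 0.61 in TKO and of -0.82, -0.50 and -0.51 in Dox, and Rnf167 and Fam83h had 0.21 and 0.42 in TKO and -0.29 and -0.42 in Dox. Since these genes were picked for following the members over the same libraries, their fold changes are given without a test.

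Closest to Ctdsp1 were Rab3b, a regulator of vesicle secretion (r = 0.97), Cyp2j9, Myl12b, Add1 and Calcoco1 (r = 0.93), with negative fold changes in TKO (-1.26, -0.52, -0.63, -0.36 and -0.46). Closest to Ctdspl were Dusp1 (r = 0.95), Cby1, Stat5a, Lmf2 and Zfp36 (r = 0.93). Dusp1, a phosphatase of MAP kinases, and Zfp36, which promotes messenger RNA decay, were at -0.66 and -1.23 in TKO and at -0.10 and -0.07 in Dox. Closest to Ctdspl2 were Zscan29 (r = 0.97), Paxbp1, Mbtd1, Rnpc3 and Ogt (r = 0.96). Rnpc3, of the minor spliceosome, was at -0.73 in TKO beside Paxbp1 (-0.39), Mbtd1 (-0.49), Ogt (-0.43) and Zscan29 (-0.20).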
